A study of Homo sapiens with 12 samples.

Results

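The 6 RNAs described here are structured, encode no protein and were listed among the eIF3 crosslinking clusters of 293T cells. They are the mitochondrial ribosomal RNA MT-RNR2, the mitochondrial transfer RNA MT-TP, the ribonuclease P RNA RPPH1, the ribosomal RNA pseudogene RNA5-8SP2 and the small nuclear RNAs RNU11 and RNU12. A cluster, a stretch covered by crosslinked reads, was taken when its gene name matched one of these names after a trailing transcript number had been removed. This gave 39 of the 1477 clusters and 6 of the 479 genes in the table. In the study, 293T cells, which descend from human embryonic kidney and carry a viral large T antigen, received 100 µM 4-thiouridine for 14 h and were crosslinked on ice at 0.15 J per square cm. One antibody against eIF3b was used for every library, RNA was digested with RNase T1, and bands of protein with RNA were cut from a denaturing gel. The groups are eIF3g, eIF3d, eIF3b and eIF3a, each with 3 replicate libraries, 12 in all, and every group had the same labelling and crosslinking. No input or control-antibody library is among the samples, so reads that reach a library without specific crosslinking cannot be told apart from those of eIF3.

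Replicates are pooled in the table, so each subunit has 1 value per cluster with no spread between libraries, and no test between subunits was possible. Intervals are exact and at 95%, they cover counting error alone, and reads of amplified libraries are not independent molecules. The eIF3g clusters held 62405 reads, those of eIF3d 24150, those of eIF3b 19187 and those of eIF3a 15132. The smallest cluster in the table had 8 reads. Depth per library is unknown, since reads outside clusters are not tabulated. The abundance of each RNA in the cells was not measured, so more crosslinking and more RNA cannot be told apart, and a cluster list holds no expression profile against which the cell line could be checked.

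eIF3 is a multi-subunit factor that binds the small cytosolic ribosomal subunit and helps to bring it to mRNA. Mitochondria translate their own mRNAs with separate ribosomes and separate initiation factors. MT-RNR2 is the ribosomal RNA of the large mitochondrial subunit and MT-TP carries proline in the same organelle. RPPH1 is the catalytic RNA of nuclear ribonuclease P, which trims the 5′ ends of transfer RNA precursors. RNU11 and RNU12 are the U11 and U12 RNAs of the minor spliceosome, which recognise the 5′ splice site and the branch point of a rare class of introns. RNA5-8SP2 is a nuclear copy named for a short ribosomal RNA of the large cytosolic subunit.

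Together the 6 RNAs held 4925 reads in eIF3g, 1117 in eIF3d, 973 in eIF3b and 481 in eIF3a. As a share of the subunit's cluster reads this was 7.89% in eIF3g (7.68 to 8.11), 4.63% in eIF3d (4.36 to 4.90), 5.07% in eIF3b (4.76 to 5.39) and 3.18% in eIF3a (2.90 to 3.47). The share was largest in eIF3g and smallest in eIF3a, and the intervals of eIF3d and eIF3b overlapped. MT-RNR2 gave 63.0% of all reads of the 6 RNAs, RPPH1 14.1%, RNA5-8SP2 12.2%, MT-TP 7.44%, RNU11 2.13% and RNU12 1.09%. Without MT-RNR2, the shares were 1.82% in eIF3g, 2.07% in eIF3d, 4.38% in eIF3b and 1.95% in eIF3a, so that the subunit with the largest share was then eIF3b. Of the clusters in the noncoding classes of the authors' annotation (lincRNA, miRNA, miscRNA, mitoRNA, piwi and rRNA), the 6 RNAs held 12.6% of the reads in eIF3g, 40.3% in eIF3d, 59.1% in eIF3b and 38.7% in eIF3a.

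**Figure D1:**
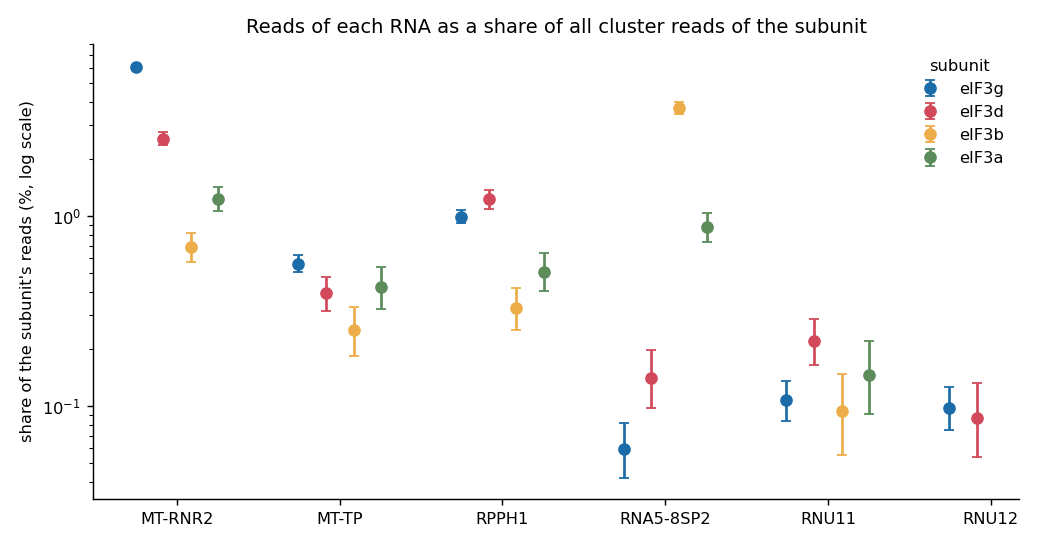
Share of each subunit's cluster reads held by each RNA (percent, log axis). Points are the pooled value of a subunit and bars are exact 95% intervals for counting error. MT-RNR2 has its highest point in eIF3g at 6.07%, whereas RNA5-8SP2 has its highest in eIF3b at 3.71%, and RNU12 has points in eIF3g and eIF3d alone.

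All but RNU12, 5 of the 6 RNAs, were listed for all 4 subunits. Over the whole table this held for 161 of 479 genes, or 33.6%. Among the 31 genes with a cluster in a noncoding class, these 6 included, 13 were, or 41.9%. RNU12 was listed for eIF3g and eIF3d and had no cluster in the lists of eIF3b and eIF3a, which start at 8 reads, so fewer reads than that could have been present.

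Length differs widely between these RNAs, so levels were also set per nucleotide of the gene, with lengths from a RefSeq table of the GRCh38 assembly. MT-RNR2 is 1559 nt long, RPPH1 341, RNA5-8SP2 152, RNU12 150, RNU11 135 and MT-TP 68. In eIF3g the level in reads per nt of gene was 5.16 for MT-TP, 2.43 for MT-RNR2, 1.82 for RPPH1, 0.496 for RNU11, 0.407 for RNU12 and 0.243 for RNA5-8SP2. In eIF3d the order was MT-TP with 1.40 reads per nt of gene, RPPH1 with 0.868, MT-RNR2 with 0.396, RNU11 with 0.393, RNA5-8SP2 with 0.224 and RNU12 with 0.14. MT-TP thus had the highest level per length in both subunits, although MT-RNR2 had more reads. In eIF3b RNA5-8SP2 led with 4.68 reads per nt of gene, followed by MT-TP with 0.706, RPPH1 with 0.185, RNU11 with 0.133 and MT-RNR2 with 0.0847. In eIF3a MT-TP and RNA5-8SP2 were close, with 0.941 and 0.868 reads per nt of gene, and RPPH1, RNU11 and MT-RNR2 had 0.226, 0.163 and 0.119. The shortest of the 6 RNAs was therefore first or next to first in each of the 4 subunits. RNase T1 cuts after G, and the yield of reads per length was not corrected for this.

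MT-RNR2 had 18 clusters on the plus strand of chromosome M, annotated as mitoRNA, which fall into 6 loci once clusters that overlap by at least 1 nt are joined. Positions are those of the authors' table, with hg19 as the build per the submitters' processing notes, and the sources used here do not tell whether counting starts at 0 or at 1. From 5′ to 3′ the loci spanned 1745 to 1769, 2066 to 2095, 2193 to 2249, 2750 to 2920, 3098 to 3123 and 3158 to 3230. Under the name MT-RNR2, the last 3 of these were listed for every subunit. The locus from 1745 was found in eIF3g, that from 2066 in eIF3g and eIF3a, and that from 2193 in eIF3d, eIF3b and eIF3a. By the same rule of overlap, clusters of another name, given below, join the locus from 2193. They include a cluster of eIF3g, so that locus holds every subunit once they are counted. The clusters covered 320 nt of the gene in eIF3g, or 20.5% of its length, against 12.2% in eIF3d, 10.0% in eIF3b and 11.0% in eIF3a.

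The 3′-most locus of MT-RNR2 had the most reads in every subunit. It held 2159 reads in eIF3g, 397 in eIF3d, 56 in eIF3b and 85 in eIF3a. Within the reads of the gene this was 57.0% in eIF3g (55.4 to 58.5), 64.2% in eIF3d (60.3 to 68.0), 42.4% in eIF3b (33.9 to 51.3) and 45.7% in eIF3a (38.4 to 53.1). The concentration at the 3′ locus was thus larger in eIF3g and eIF3d than in eIF3b and eIF3a, with intervals that did not overlap between these 2 pairs. Among the 3 loci listed for every subunit under the name MT-RNR2, its 3′ edges were the most uniform. The cluster ended at 3230 in eIF3g, eIF3d and eIF3a and at 3229 in eIF3b, and started between 3158 and 3165.

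The neighbouring locus at 3098 held 610 reads in eIF3g, 116 in eIF3d, 24 in eIF3b and 49 in eIF3a. It started at the same base in all 4 subunits and ended at 3120 in eIF3d and at 3123 in the others. Its part of the gene's reads was 16.1% in eIF3g, 18.8% in eIF3d, 18.2% in eIF3b and 26.3% in eIF3a (20.2 to 33.3), a narrower range in percentage points than that of the 3′-most locus. The wide locus from 2750 to 2920 was a single cluster of 170 nt with 846 reads in eIF3g, the longest cluster in the table. It held 50 reads in eIF3d, 26 in eIF3b and 25 in eIF3a, in shorter clusters at different places inside the eIF3g cluster. The eIF3d cluster ran from 2757 to 2820, and those of eIF3b and eIF3a from 2862 to 2891 and from 2881 to 2910, so the eIF3d cluster did not overlap theirs.

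Clusters under another name continued the middle locus of MT-RNR2. The name FR145575, a piwi-interacting RNA entry in the authors' annotation, had clusters on the same strand at 2252 to 2281 with 360 reads in eIF3g, at 2241 to 2272 with 26 reads in eIF3b and at 2268 to 2306 with 22 reads in eIF3a. In eIF3b the FR145575 cluster overlapped the MT-RNR2 cluster from 2212 to 2249. In eIF3g, where this stretch had no cluster named MT-RNR2, the FR145575 cluster had more reads than 2 of the 5 clusters that carry the gene's name. Counting these clusters with MT-RNR2, a choice made after seeing the data, would raise the share of the 6 RNAs to 8.47% in eIF3g, 5.21% in eIF3b and 3.32% in eIF3a. No FR145575 cluster was listed for eIF3d.

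**Figure D2:**
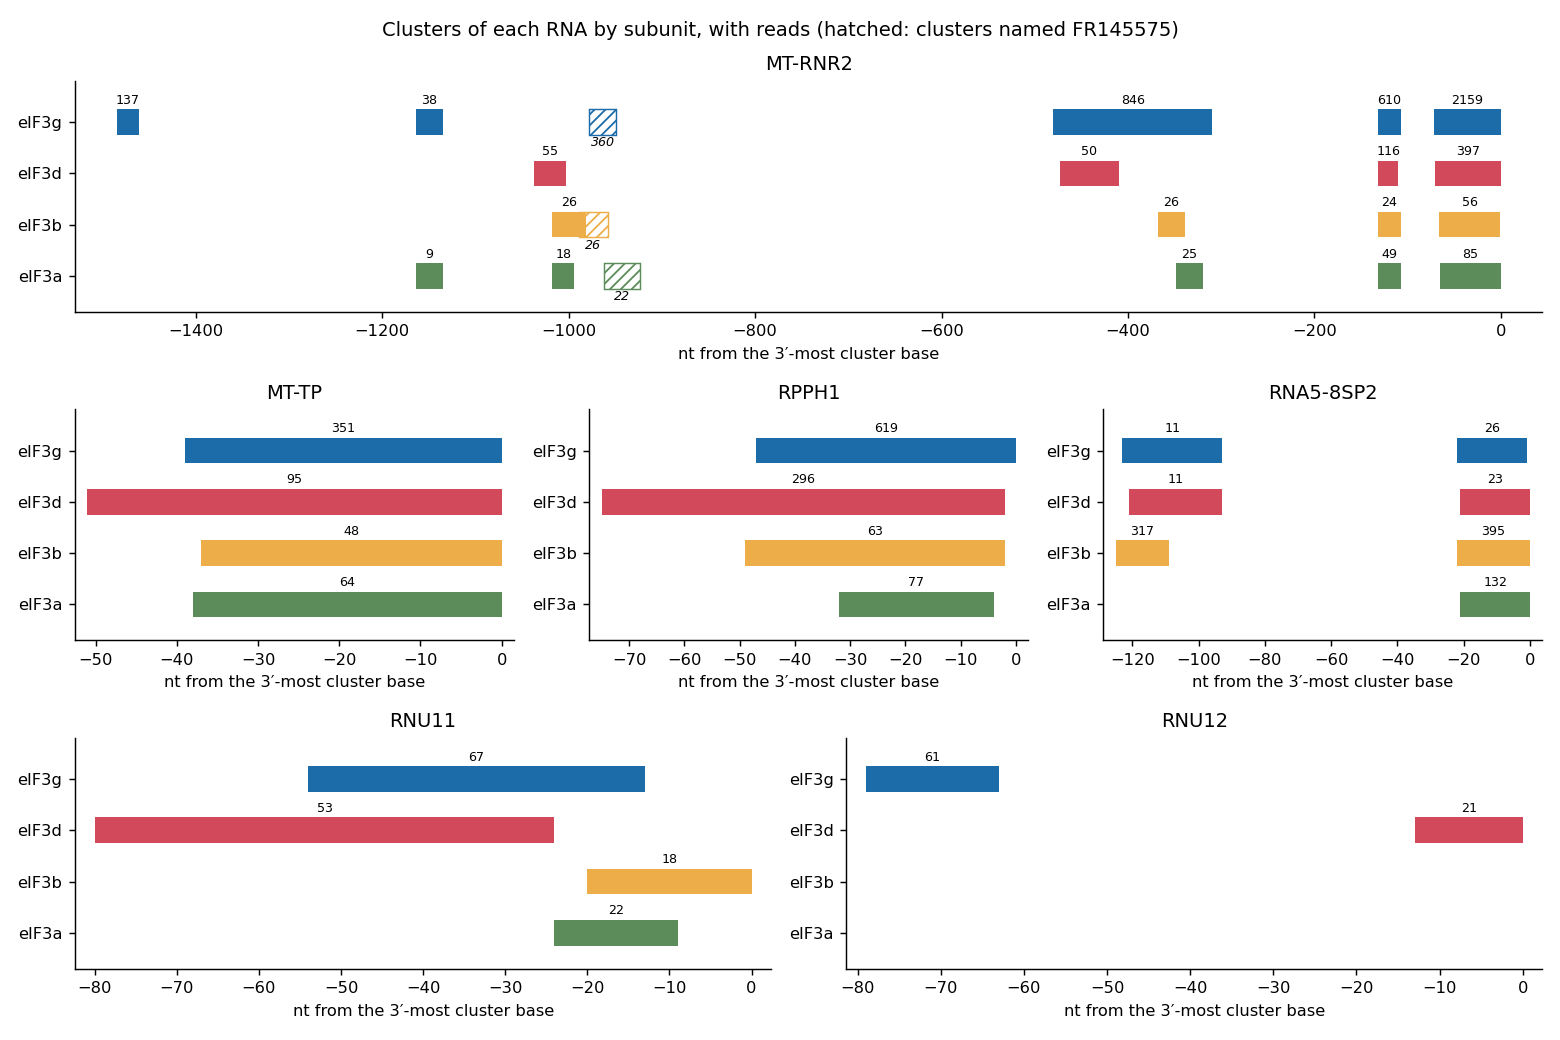
Clusters of each RNA along its own strand, one row per subunit, with the x axis in nt from the 3′-most cluster base of that RNA and the number of reads above each bar. Hatched bars are clusters named FR145575, with reads in italics below. The 3′-most cluster of MT-RNR2 and the cluster of MT-TP line up at their 3′ ends in the 4 rows, while those of RNU11 and RNU12 lie at different places.

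MT-TP is encoded on the minus strand, opposite to MT-RNR2, and had 1 cluster per subunit. It held 351 reads in eIF3g, 95 in eIF3d, 48 in eIF3b and 64 in eIF3a. As shares of the subunit's reads these were 0.562% in eIF3g (0.505 to 0.624), 0.393% in eIF3d (0.318 to 0.481), 0.250% in eIF3b (0.185 to 0.332) and 0.423% in eIF3a (0.326 to 0.540). The intervals of eIF3d and eIF3a overlapped, as did those of eIF3g and eIF3a, and that of eIF3b lay below that of eIF3g. All 4 clusters shared the coordinate 15955, the 3′ edge on this strand, and their 5′ edges lay at 15994 in eIF3g, 16006 in eIF3d, 15992 in eIF3b and 15993 in eIF3a. The clusters thus covered between 54.4% and 75% of the transfer RNA's length.

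Both mitochondrial RNAs together were most of what was listed for chromosome M. All clusters on that chromosome held 5239 reads in eIF3g, 795 in eIF3d, 258 in eIF3b and 350 in eIF3a, or 8.40%, 3.29%, 1.34% and 2.31% of the subunit's reads. MT-RNR2 and MT-TP made up 79.0% of these in eIF3g, 89.7% in eIF3d, 69.8% in eIF3b and 71.4% in eIF3a. Of the 35 other mitochondrial genes in the RefSeq table, 3 had a cluster under their own name. MT-RNR1, the ribosomal RNA of the small mitochondrial subunit, had 292 reads in eIF3g and 44 in eIF3d. MT-TF, the phenylalanine transfer RNA, had 71 reads in eIF3g, 38 in eIF3b and 38 in eIF3a. The name MT-ND4L, for a subunit of respiratory complex I, had 40 reads in eIF3a, and it was the 1 protein-coding mitochondrial name. Its clusters lay at 11276 to 11306 and at 11854 to 11891. These positions were not checked against gene coordinates, so the name is that of the authors' table alone. In eIF3g and eIF3d, where both ribosomal RNAs were listed, that of the large subunit had more reads than that of the small one. Other reads on chromosome M stood under piwi names, FR145575 among them. FR025691, from 12215, had 325 reads in eIF3g, 38 in eIF3d and 14 in eIF3b. FR023255, at 1404 to 1446, had 50 reads in eIF3g.

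RPPH1 lies on the minus strand of chromosome 14 and had 1 cluster per subunit, annotated as miscRNA. The cluster held 619 reads in eIF3g, 296 in eIF3d, 63 in eIF3b and 77 in eIF3a. It ranked 14 of 401 clusters by reads in eIF3g and 9 of 403 in eIF3d, against 46 of 298 in eIF3b and 39 of 375 in eIF3a. As shares the values were 0.992% in eIF3g (0.916 to 1.07), 1.23% in eIF3d (1.09 to 1.37), 0.328% in eIF3b (0.252 to 0.420) and 0.509% in eIF3a (0.402 to 0.636). The intervals of eIF3g and eIF3d lay above those of eIF3b and eIF3a and did not overlap each other. The 4 clusters shared their 3′ part, with lower coordinates between 20811227 and 20811231. They differed in their 5′ reach, with upper coordinates of 20811274 in eIF3g, 20811302 in eIF3d, 20811276 in eIF3b and 20811259 in eIF3a. At its longest, in eIF3d, the cluster covered 73 nt, or 21.4% of the RNA.

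RNA5-8SP2 differed from the other members in the order of the subunits. Its clusters, annotated as rRNA on the plus strand of chromosome 16, held 37 reads in eIF3g, 34 in eIF3d, 712 in eIF3b and 132 in eIF3a. The shares were 0.0593% in eIF3g (0.0417 to 0.0817), 0.141% in eIF3d (0.0975 to 0.197), 3.71% in eIF3b (3.45 to 3.99) and 0.872% in eIF3a (0.730 to 1.03), with no overlap of intervals between any 2 subunits. In eIF3b it was the noncoding gene with most reads, holding 43.3% of the reads of the noncoding classes, and in eIF3a it held 10.6%.

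The RNA5-8SP2 clusters fell into 2 loci. The 5′ locus (33965454 to 33965486) held 11 reads in eIF3g, 11 in eIF3d and 317 in eIF3b, and was not listed for eIF3a. The 3′ locus (33965557 to 33965579) held 26 reads in eIF3g, 23 in eIF3d, 395 in eIF3b and 132 in eIF3a, with edges that agreed to within 1 nt. The 5′ cluster of eIF3b was 16 nt long, against 30 nt in eIF3g and 28 nt in eIF3d. The RefSeq table holds 14 other names of this RNA family, gene copies included. The sources used here do not tell how reads that match several copies were assigned, so the values cannot be attributed to this copy. That table also names 13 genes as similar to MT-RNR2, 5 pseudogenes of RNU11, 2 of RPPH1 and 1 of RNU12, and reads shared with these were not separated either.

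RNU11 and RNU12 had the fewest reads summed over the 4 subunits, 160 and 82, although RNA5-8SP2 had the fewest of the 6 in eIF3g and fewer than RNU11 in eIF3d. The authors' table annotates both as lincRNA, and the RefSeq table lists both as snRNA. RNU11, on the plus strand of chromosome 1, had 67 reads in eIF3g, 53 in eIF3d, 18 in eIF3b and 22 in eIF3a. These were 0.107% of the reads in eIF3g (0.0832 to 0.136), 0.219% in eIF3d (0.164 to 0.287), 0.0938% in eIF3b (0.0556 to 0.148) and 0.145% in eIF3a (0.0911 to 0.220). The eIF3d interval lay above those of eIF3g and eIF3b, and the intervals of eIF3g, eIF3b and eIF3a overlapped.

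The RNU11 clusters were shifted along the RNA from one subunit to the next. The eIF3g cluster ran from 28975199 to 28975240, that of eIF3d from 28975173 to 28975229, that of eIF3b from 28975233 to 28975253 and that of eIF3a from 28975229 to 28975244. The eIF3g cluster overlapped that of eIF3d by 30 nt, that of eIF3a by 11 nt and that of eIF3b by 7 nt. The eIF3d cluster did not overlap those of eIF3b, with a gap of 4 nt, or of eIF3a, with which it shared an edge. The 4 clusters count as 1 locus because the eIF3g cluster bridges them. RNU12, on the plus strand of chromosome 22, had 61 reads at 43011320 to 43011336 in eIF3g and 21 reads at 43011386 to 43011399 in eIF3d. The 2 RNU12 clusters lay 50 nt apart, so no RNU12 position was listed for more than 1 subunit.

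The next comparison set the reads of a gene in one subunit over those in another, over all genes listed for both. The reads are not scaled for depth, comparisons that share a subunit are not independent of each other, and a fold here is a description with no test. Over eIF3a, the eIF3g reads were at least 2-fold higher for 4 of the 5 RNAs listed for both, and for 50 of 255 genes in all, or 19.6%. The median ratio of all 255 genes was 1. MT-RNR2, with 3790 reads in eIF3g against 186 in eIF3a, had a ratio of 20.4, the highest of all 255 genes. Genes without an eIF3a cluster have no ratio here, among them SNHG1 with 16234 eIF3g reads and GAS5 with 7338. The ratio was 8.04 for RPPH1, 5.48 for MT-TP and 3.05 for RNU11, with 248, 247 and 225 genes below them. RNA5-8SP2 went the other way, with 37 reads in eIF3g against 132 in eIF3a, a ratio of 0.280 that was above that of 14 genes. A decrease of at least 2-fold was seen for 53 of the 255 genes, or 20.8%.

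Other RNAs of the noncoding classes also had high ratios of eIF3g over eIF3a. Of the 12 genes outside the 6 that were listed for both subunits, 6 were at least 2-fold higher in eIF3g, or 50%. Scaling changed the result. By shares of the subunit's reads, MT-RNR2 alone of the 5 was at least 2-fold higher in eIF3g than in eIF3a, with a ratio of 4.94, while 1.96% of all genes were. The ratio by shares was 1.95 for RPPH1, 1.33 for MT-TP and 0.738 for RNU11, which turned direction, beside a median of 0.242 over all genes. Relative to 5′ UTR reads, the 4 RNAs were at least 2-fold higher again, with ratios of 15.7 for MT-RNR2, 6.20 for RPPH1, 4.23 for MT-TP and 2.35 for RNU11, while 14.1% of all genes were. The rank of each RNA among the genes was the same under every scaling, because a scaling multiplies all ratios by 1 factor.

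Over eIF3b, the eIF3g reads were at least 2-fold higher for 4 of 5 RNAs, and for 28.5% of 214 genes. The ratios were 28.7 for MT-RNR2, 9.83 for RPPH1, 7.31 for MT-TP and 3.72 for RNU11, against 0.0520 for RNA5-8SP2, which was above that of 3 genes. By shares, the first 3 of these stayed at least 2-fold higher and RNU11 had a ratio of 1.14, and 7.48% of all genes were at least 2-fold higher. The median by shares over all genes was 0.346.

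For eIF3d over eIF3a, 3 of 5 RNAs were at least 2-fold higher, and 17.9% of 268 genes were. The ratios were 3.84 for RPPH1, 3.32 for MT-RNR2 and 2.41 for RNU11, while MT-TP, with 95 reads in eIF3d against 64 in eIF3a, had a ratio of 1.48. By shares, MT-TP turned to 0.930 and RNU11 stood at 1.51, so of the 5 RNAs MT-RNR2 at 2.08 and RPPH1 at 2.41 stayed at least 2-fold higher, with 4.48% of all genes. The median by shares over all genes was 0.692. RNA5-8SP2 had a ratio of 0.258 in reads, above that of 9 genes. For eIF3d over eIF3b, 3 of 5 RNAs were at least 2-fold higher and 29.2% of 209 genes were, with RPPH1 at 4.70, MT-RNR2 at 4.68 and RNU11 at 2.94, and MT-TP just under that fold at 1.98. RNA5-8SP2 stood at 0.0478, above that of 1 gene.

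Between the remaining pairs, 4 of the RNAs lay near the middle of the genes for eIF3b over eIF3a. The ratios were 0.710 for MT-RNR2, 0.750 for MT-TP and 0.818 for RPPH1 and for RNU11, beside a median of 0.818 over 209 genes. RNA5-8SP2, with 712 reads in eIF3b against 132 in eIF3a, had a ratio of 5.39, higher than that of 203 genes, and 13.9% of the genes were at least 2-fold higher. For eIF3g over eIF3d, 4 of the 6 RNAs were at least 2-fold higher, with 18.8% of 261 genes. The ratios in reads were 6.13 for MT-RNR2, 3.69 for MT-TP, 2.90 for RNU12 and 2.09 for RPPH1. By shares RPPH1 turned to 0.809, whereas MT-RNR2, at 2.37, was the 1 RNA of the 6 at least 2-fold higher, with 4.21% of all genes. The median by shares over the 261 genes was 0.387, and RPPH1 was above 218 of them.

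**Figure D3:**
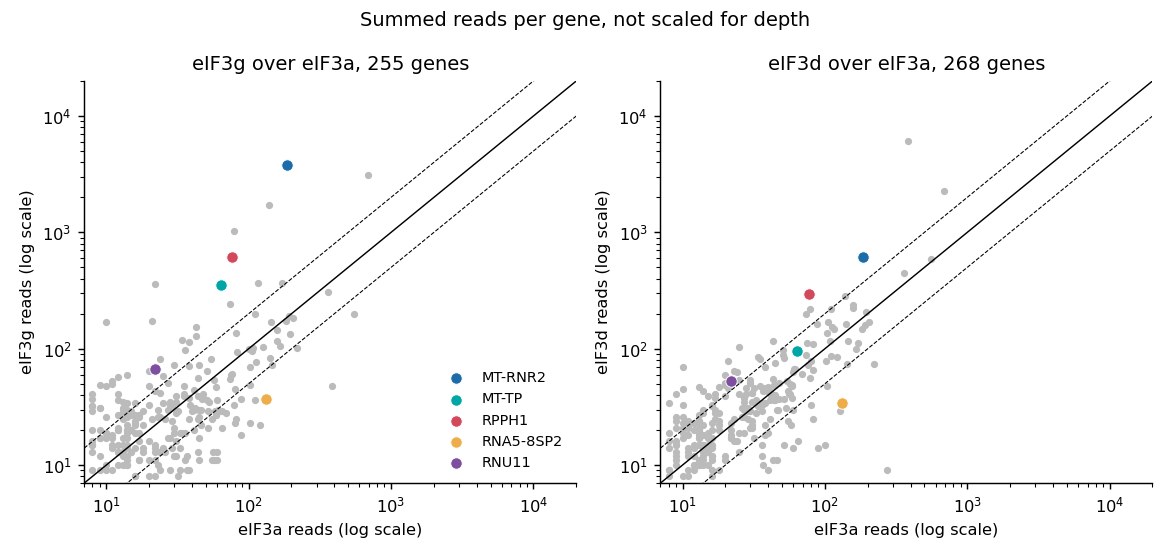
Summed reads per gene in eIF3g (left) and eIF3d (right) against those in eIF3a, both axes on a log scale, one point per gene listed for both. The solid line marks equal reads and the dashed lines a 2-fold difference. MT-RNR2 and RPPH1 lie above the upper dashed line in both plots and RNA5-8SP2 lies below the lower one.

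T-to-C conversions are taken as marks of crosslinked uridines, and the table gives their number per cluster. T-to-C mismatches of other origin were not separated from them. It can exceed the reads, because a read can carry more than 1. Summed over the 6 RNAs, conversions per read were 0.497 in eIF3g, 0.0457 in eIF3d, 1.20 in eIF3b and 1.01 in eIF3a, against 0.262, 0.0885, 0.828 and 0.914 over the rest of the clusters in the same order of subunits. In these sums, clusters with many reads weigh most. Without RNA5-8SP2, a choice made after seeing the data, the value was 0.582 in eIF3b and 0.642 in eIF3a, so that the remaining RNAs lay below the rest of the clusters in both, where the 6 together lay above. The median over the clusters of the 6 RNAs was 0.261 in eIF3g, 0.0821 in eIF3d, 0.708 in eIF3b and 0.857 in eIF3a, and over the remaining clusters it was 1.02 in eIF3g, 0.188 in eIF3d, 1.06 in eIF3b and 1.03 in eIF3a. The eIF3d numbers were thus low over the whole list. SUPT3H, for example, had 2 conversions in 220 reads in eIF3d and 400 in 200 in eIF3g. PKNOX2 had 2 in 60 reads in eIF3d and 130 in 65 in eIF3g, and CCDC160 had 2 in 8 and 51 in 26. Across these genes the eIF3d conversions did not rise with the reads, as those of eIF3g did. A low value per read in eIF3d can therefore come with many reads alone. The sources used here do not tell whether conversions were counted alike in eIF3d. Its levels can therefore not be set against those of the other subunits.

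By cluster, most of the 6 RNAs' entries carried fewer conversions per read than the middle cluster of their subunit. This held for 9 of 11 clusters in eIF3g, 10 of 10 in eIF3d, 7 of 9 in eIF3b and 7 of 9 in eIF3a, where 49.9%, 48.4%, 49.3% and 49.9% of all clusters lie below the median. Other noncoding clusters were also low, with 19 of 25 below it in eIF3g, 20 of 23 in eIF3d, 11 of 18 in eIF3b and 10 of 17 in eIF3a. Clusters outside the noncoding classes were below it in 47.1%, 44.6%, 47.6% and 48.7%. In eIF3d, a cluster of another gene with many reads could also be low. UBE2D2 had 11 conversions in 589 reads there, against 622 in 554 in eIF3a. The 10 of 10 and the 20 of 23 in eIF3d can therefore not be told apart from an effect of read number. Clusters of the 6 RNAs were not all alike, as each RNA had its own level.

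In MT-RNR2 conversions per read varied along the RNA. The 3′-most cluster carried 1885 conversions in 2159 reads in eIF3g, 49 in 56 in eIF3b and 74 in 85 in eIF3a, which are 0.873 (0.834 to 0.913), 0.875 (0.647 to 1.16) and 0.871 (0.684 to 1.09) per read. The value was therefore nearly equal in these 3 subunits. In eIF3d, where conversions were low over the whole list, the same cluster carried 8 conversions in 397 reads, or 0.0202 per read. At the wide locus from 2750 the values were 0.0449 in eIF3g (38 conversions in 846 reads), 0.08 in eIF3d, 0.0385 in eIF3b and 0.2 in eIF3a. In eIF3g, eIF3b and eIF3a, the 3′-most cluster thus carried more conversions per read than the wide locus, with intervals that did not overlap. At the locus from 3098 the values were 0.261 in eIF3g (0.222 to 0.304), 0.0948 in eIF3d, 0.708 in eIF3b (0.413 to 1.13) and 0.857 in eIF3a (0.618 to 1.16). Here eIF3g lay below eIF3b and eIF3a, unlike at the 3′-most cluster.

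MT-TP carried 252 conversions in 351 reads in eIF3g, 8 in 95 in eIF3d, 62 in 48 in eIF3b and 69 in 64 in eIF3a. Per read this was 0.718 in eIF3g (0.632 to 0.812), 0.0842 in eIF3d, 1.29 in eIF3b (0.990 to 1.66) and 1.08 in eIF3a (0.839 to 1.36). In eIF3b it was higher than in 252 of 298 clusters, and so the transfer RNA stood apart from MT-RNR2, whose clusters were below the median in that subunit.

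RPPH1 had few conversions per read in eIF3g, eIF3b and eIF3a. In eIF3d its value per read was low too, but there a low value can come with many reads alone. It carried 20 in 619 reads in eIF3g, 7 in 296 in eIF3d, 9 in 63 in eIF3b and 11 in 77 in eIF3a. These were 0.0323, 0.0236, 0.143 and 0.143 per read, and 3 clusters of eIF3g, 21 of eIF3d, 15 of eIF3b and 19 of eIF3a were lower. RNU11 carried 0.149 conversions per read in eIF3g, 0.389 in eIF3b and 0.364 in eIF3a, with intervals that overlapped among these subunits. In eIF3d it carried 0.132, which is not set against the others. Lower than RNU11 were 31 of 401 clusters in eIF3g, 25 of 298 in eIF3b and 27 of 375 in eIF3a, but 139 of 403 in eIF3d. RNU12 carried 5 conversions in 61 reads in eIF3g and 1 in 21 in eIF3d.

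RNA5-8SP2 had conversions per read that differed between its 2 loci in eIF3b. Its 3′ cluster carried 38 conversions in 26 reads in eIF3g, 3 in 23 in eIF3d, 780 in 395 in eIF3b and 262 in 132 in eIF3a. Per read these were 1.46 in eIF3g, 0.130 in eIF3d, 1.97 in eIF3b (1.84 to 2.12) and 1.98 in eIF3a (1.75 to 2.24). Clusters with at least 1.9 conversions per read made up 5.03% of the list in eIF3b and 5.07% in eIF3a. Most of these were introns, with 11 of 15 in eIF3b and 12 of 19 in eIF3a, and RNA5-8SP2 was the 1 rRNA entry in each. Reads of other copies of this RNA were not separated, and whether its values near 2 come from crosslinking was not tested. The 5′ cluster in eIF3b carried 236 in 317 reads, or 0.744 per read (0.653 to 0.846), below the 3′ cluster of the same RNA and subunit and below the median of 1.05 over the eIF3b clusters. In eIF3d both clusters, at 0.0909 and 0.130, lay below that subunit's median of 0.182.

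**Figure D4:**
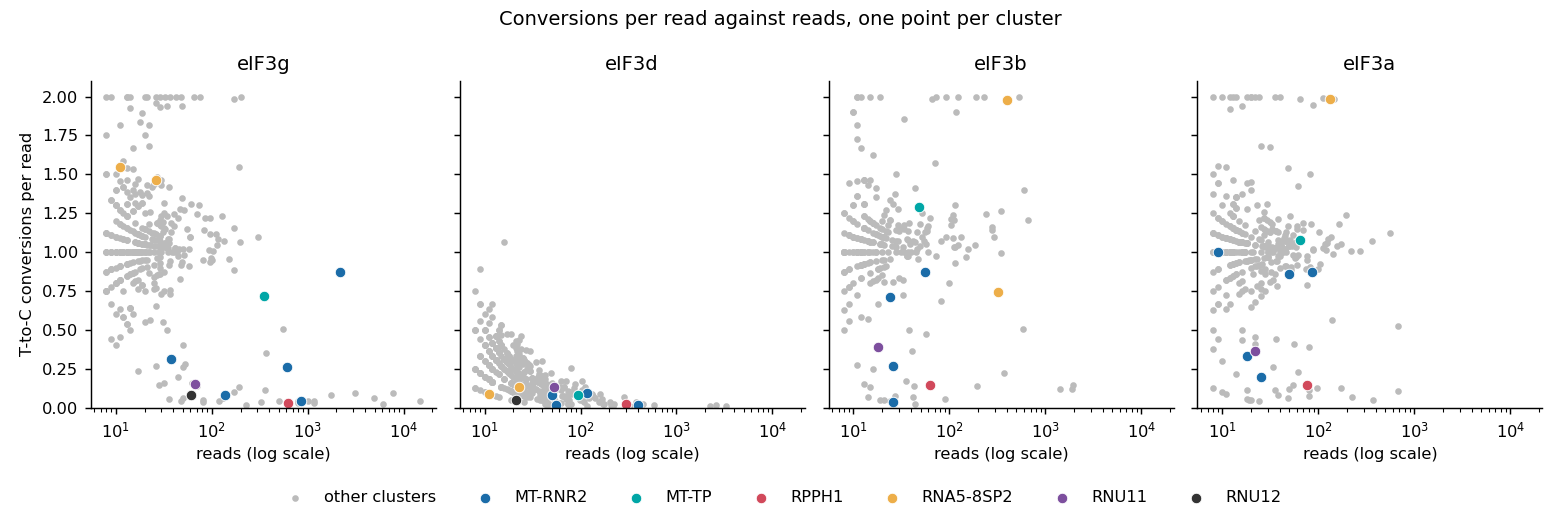
T-to-C conversions per read against reads (log axis) for every cluster, one panel per subunit. Grey points are clusters of other genes and coloured points those of the 6 RNAs. The 3′ cluster of RNA5-8SP2 lies near 2 conversions per read in eIF3b and eIF3a and its 5′ cluster at 0.744 in eIF3b, while RPPH1 and RNU11 lie below 0.4 in the 4 panels.

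Relatives of these RNAs were looked up in lists of related names. Of 39 other small nuclear RNAs of the RefSeq table, which include the major spliceosomal RNAs, 0 had a cluster under their name. The noncoding classes given above include none for small nuclear or small nucleolar RNAs. Reads at such RNAs could stand under another name, so the lack of a name does not show a lack of reads. Of 620 other structured RNAs (ribonuclease MRP, signal recognition particle, Y, vault, ribosomal, telomerase and small nucleolar RNAs), 1 had a cluster under its own name. This was VTRNA1-2, a vault RNA of a large cytoplasmic particle, with 171 reads in eIF3g, 45 in eIF3d, 8 in eIF3b and 10 in eIF3a.

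Likeness was measured as the cosine between the 4 shares of reads, over genes listed for all 4 subunits with at least 100 reads, which were 112 genes including 5 of the 6 RNAs. The 4 points come from 1 antibody, and the cosine is high whenever a pair of genes leads in the same subunit. For MT-RNR2 the nearest genes were JUN, a transcription factor mRNA (cosine 0.992, with 1735 reads in eIF3g, 286 in eIF3d, 100 in eIF3b and 138 in eIF3a), and the lincRNA RP11-331F9.10 (0.989). For MT-TP they were HNRNPC, an RNA-binding protein (0.969), and EIF3M, an eIF3 subunit (0.959). For RPPH1 they were ATP1B3, a sodium pump subunit (0.9998), and BTG1 (0.980). For RNA5-8SP2 they were GLO1 (0.991, with 61 reads in eIF3g, 73 in eIF3d, 344 in eIF3b and 76 in eIF3a) and FGFR2, a growth factor receptor (0.983). For RNU11 they were the lincRNA RP6-99M1.2 (0.995) and SUPT3H (0.989). For RNU12 they were VTRNA1-2 (0.965) and RP11-331F9.10 (0.928). Genes listed for eIF3g and eIF3d alone, as RNU12 is, were not among the genes compared.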

How the data were processed

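The authors deposited 1 table of clusters, in which whole-number read counts and T-to-C conversion counts are given per cluster and subunit without normalization, per the file headers. The submitters' processing notes name hg19, cutadapt, Bowtie and bedtools, and give no versions. The sources used here name no cluster caller or thresholds and do not tell how the 3 replicates were combined. Subunit letters were matched to the 4 groups of the labels, so each group has 1 pooled value.

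From the table, shares of a subunit's cluster reads were computed with exact Clopper-Pearson intervals at 95%, and conversions per read with exact Poisson intervals on the conversions. Loci join same-strand clusters that share 1 nt or more, a step tested on simulated data. Ratios between subunits use summed reads per gene. Lengths and names come from a RefSeq table of GRCh38. Named were all 6 RNAs, the 2 genes with the most similar shares to each, and members of 3 lists of related RNAs. FR145575, FR025691 and FR023255 were added for their positions, and SNHG1, GAS5, UBE2D2, PKNOX2 and CCDC160 as examples. The RNAs and lists were chosen with earlier results of these data known. Python 3.11.15, pandas 2.3.3, scipy 1.17.1 and matplotlib 3.10.9 were used. Alternatives changed the denominator, the cluster filter, the overlap and the summary of conversions.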

Additional observations from a re-analysis of the deposited data

How the results depend on the processing

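No paired analysis was possible because the table gives 1 pooled value per subunit and no column for the replicate, and for the same reason leaving out a replicate was not run. The number of loci, 13, was the same with an overlap of at least 10 nt or of at least 0.5 of the shorter cluster. When clusters under the subunit's median reads were left out, 4 RNAs in place of 5 were listed for all 4 subunits, RNU11 being lost. The share of reads held by the 6 RNAs depended on the denominator. In the order eIF3g, eIF3d, eIF3b and eIF3a it was 8.20%, 5.10%, 5.49% and 3.59% with those clusters left out, 12.6%, 40.3%, 59.1% and 38.7% of the noncoding reads, and 38.6%, 9.29%, 11.6% and 4.89% when set over 5′ UTR reads. Without the subunit's gene with most reads it was 10.7%, 6.20%, 7.09% and 3.33%. Without MT-RNR2 it was 1.82%, 2.07%, 4.38% and 1.95%, and with the FR145575 clusters 8.47% in eIF3g. The number of RNAs at least 2-fold higher in eIF3g than in eIF3a was 4 in reads, 1 by shares and 4 over 5′ UTR reads. Conversions per read of the 6 RNAs, in the same order, were 0.261, 0.0821, 0.708 and 0.857 as a median over clusters. Leaving out the strongest cluster of each RNA gave 0.144, 0.0733, 0.664 and 0.614. That step left clusters of MT-RNR2 and RNA5-8SP2 alone, and in eIF3a those of MT-RNR2 alone, since the other RNAs had no further cluster. Without RNA5-8SP2, and with all clusters of the other RNAs, conversions per read were 0.582 in eIF3b and 0.642 in eIF3a. Both values lay below the rest of the clusters in place of above. Adding FR145575 and removing MT-RNR2 or RNA5-8SP2 were chosen after seeing the data, as was the scaling of ratios. Counting error is widest for clusters with few reads, and RNU11 and RNU12 had at most 67 in a cluster.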
